A study of Rattus norvegicus with 10 samples.

Results

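The genes described here encode voltage-gated sodium channels, voltage-gated calcium channels and hyperpolarization-activated cyclic nucleotide-gated (HCN) channels. They were chosen by symbol alone, as every gene named Scn with a number and the letter a or b, Cacna1 with a letter, Cacna2d, Cacnb or Cacng with a number, or Hcn with a number. In the snRNA-seq matrices 43 of 25399 genes fitted, made up of 10 sodium channel alpha and 4 sodium channel beta genes, 9 calcium channel alpha1, 4 alpha2delta, 4 beta and 8 gamma genes, and 4 HCN genes. The bulk gene table held 37 of them among 14166 genes. Cacna1f, Cacna1s, Cacna2d4, Cacng1, Scn10a and Scn11a were not in that table.

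Sodium channel alpha subunits form the pore that carries the upstroke of the action potential, and beta subunits alter its gating and placement in the membrane. Calcium channel alpha1 subunits form the pores of the L-, P/Q-, N-, R- and T-type channels, which couple membrane voltage to transmitter release, gene transcription and burst firing. The alpha2delta and beta subunits bring these pores to the membrane, while several of the gamma genes encode transmembrane AMPA receptor regulatory proteins (TARPs), which escort glutamate receptors to synapses. HCN channels open on hyperpolarization and set the resting potential and rhythmic firing of neurons. Granule neurons of the dentate gyrus are known for sparse firing, and their excitability has long been studied after brain injury.

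All rats were male Sprague Dawley, and the tissue was the dentate gyrus of the ipsilateral side, taken from TBI and sham rats 3 weeks after the injury or sham procedure. TBI rats had a craniectomy and then a lateral fluid percussion pulse, and sham rats had the same surgery without the pulse. Bulk RNA-seq of poly(A) RNA covered 3 TBI and 3 sham rats. In snRNA-seq there were 2 TBI rats, 1 sham rat and 1 naïve rat, which had no surgery. The sham and the naïve rat together formed the control group. Each library came from 1 rat. The sham and the naïve rat differ by surgery as well as by animal. The labels give a single batch name within each assay and no age, but the deposited dates of injury put the bulk rats in 2 periods, with TBI rat 1 and sham rats 1 and 2 in spring and TBI rats 2 and 3 and sham rat 3 in autumn. The 4 nucleus libraries are given below in the order TBI 1, TBI 2, sham and naïve.

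Bulk libraries held 24730290 to 43912297 estimated counts over the gene table. Of 55863 nuclei 55124 passed the filters, with 1647 to 2652 UMIs (unique molecular identifiers, each a captured RNA molecule) in the median nucleus, and channel genes took 1292222 of 128681321 UMIs. Clusters were named by fixed markers into 11 classes. Granule neurons were 51.2%, 44.9%, 54.6% and 64.3% of the nuclei of the 4 libraries. Pairs of libraries shared 46 to 64 barcodes. Granule neuron markers were detected in every class. The granule marker share, the median over the granule neuron markers of the level in a class as a percent of that in granule neurons of the same rat, was 56.4% to 87.2% in microglia and 45.1% to 66.9% in astrocytes. It was 38.9% to 56% in oligodendrocyte precursor cells and 33.1% to 54.1% in oligodendrocytes. After the levels, the genes of each class are therefore set beside that share. A GABAergic cluster was divided, because 772 of its 1987 nuclei were not in a GABAergic cluster at the finer resolution of 1. There they formed a cluster named other excitatory neurons, and they were left out of the classes. Of these nuclei 345 came from TBI rat 1, 24 from TBI rat 2, 11 from the naïve rat and the rest from the sham rat. In addition, 3 glial clusters with granule markers above 75% of the granule level were set aside. A cluster of 2004 nuclei led by mitochondrial genes took no name and was in no class. It held 443, 775, 525 and 261 nuclei of the 4 libraries.

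The levels below are CPM, the UMIs summed per rat and class and scaled to the same total. They are descriptions with no test, and a class is said to stand apart where the ranges over the 4 rats do not overlap. Nuclear 3′ counts include introns and are not divided by gene length, so each level is compared between classes and not between genes. The highest class stood apart from the next class for 13 of 43 genes, among them Cacna1a, Cacna1g, Cacna2d1, Cacna2d2, Cacna2d3, Cacna2d4, Cacnb4, Cacng2, Cacng4, Hcn3, Scn1a and Scn7a. For the other 30 the ranges of the highest and the next class overlapped. The same count over all genes was not made, so the 13 cannot be called many or few.

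**Figure D1:**
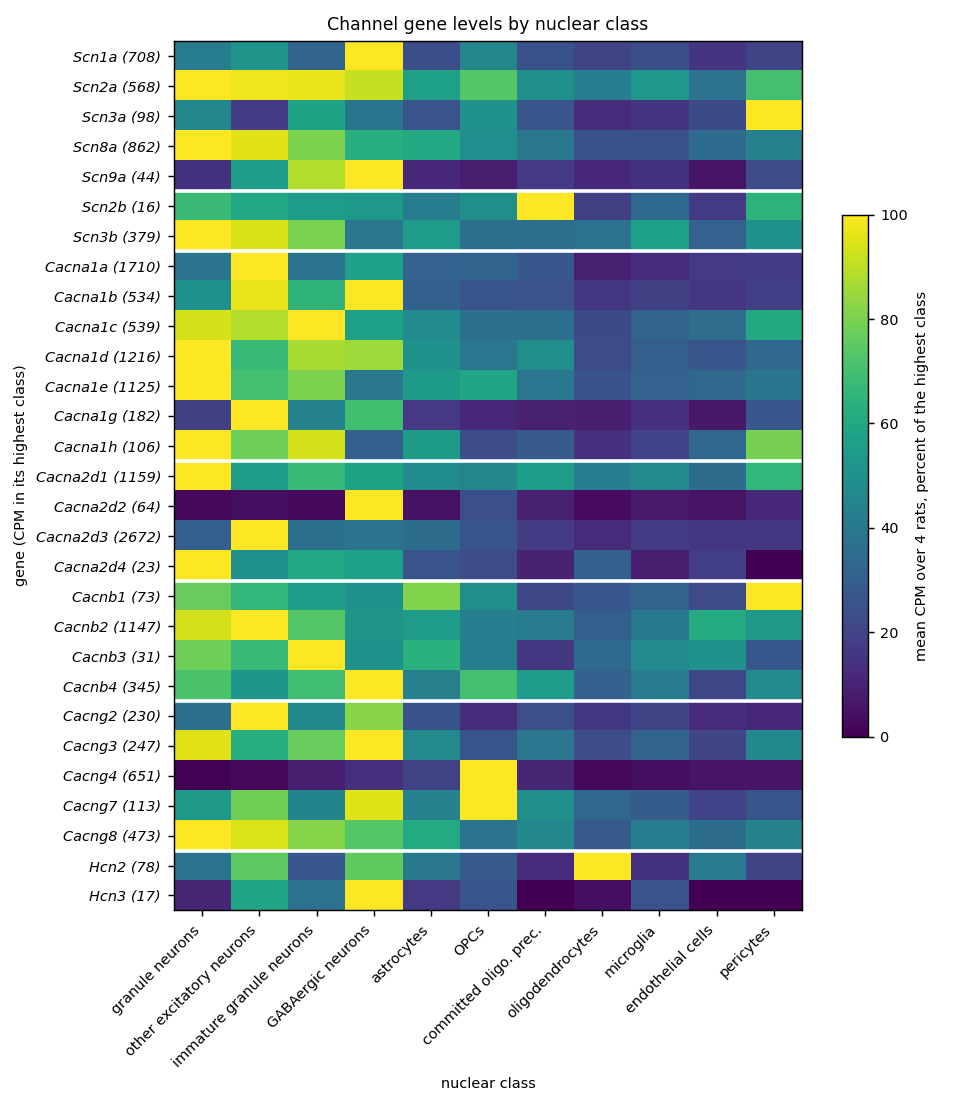
Mean level over 4 rats of 29 channel genes that reached 10 CPM in a class, as a percent of each gene's highest class (colour), with the CPM of that class beside the gene name; white lines part the families. Scn1a and Cacna2d2 peaked in GABAergic neurons, Cacna1a and Cacna2d3 in other excitatory neurons, Cacna2d1 in granule neurons and Cacng4 in oligodendrocyte precursor cells.

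Among the sodium channel pores, Scn1a, the alpha subunit known for its place in fast-spiking interneurons and whose loss causes Dravet syndrome, was highest in GABAergic neurons at 637, 761, 690 and 745 CPM. In other excitatory neurons, the next class, it was at 363, 392.8, 372 and 353 CPM, and in granule neurons at 311, 295, 292 and 287 CPM. The GABAergic rats stood apart from both, at 1.91 times the mean of the next class. The other alpha subunits of the adult brain were not centred in one neuron class. Scn2a, an alpha subunit of axons, was at 531, 580, 666 and 497 CPM in granule neurons and at 563, 555, 555 and 552 CPM in other excitatory neurons. Scn8a, which clusters at axon initial segments and nodes of Ranvier, was at 909, 963, 774 and 802 CPM in granule neurons and at 885, 915, 778 and 715 CPM in other excitatory neurons. For both genes the 2 ranges overlapped. Scn3a, an alpha subunit of the developing brain, stayed at or under 98.4 CPM in the mean of every class. Scn9a, best known from nociceptors, reached 44.4 CPM in GABAergic neurons on average. Scn4a of muscle, the sodium sensor Scn7a and the sensory neuron genes Scn10a and Scn11a had class means of at most 7.08 CPM. Within this low range Scn7a was at 4.99, 11.4, 4.99 and 6.88 CPM in GABAergic neurons, apart from every other class.

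The P/Q-type pore Cacna1a, which triggers release at fast synapses, was highest in other excitatory neurons at 1567, 2052, 1939 and 1281 CPM. It stood apart from GABAergic neurons at 989, 1139, 1018 and 782 CPM, and in granule neurons it was at 715, 691, 718 and 502 CPM. The N-type pore Cacna1b, also a presynaptic channel, was at 550, 585, 565 and 434 CPM in GABAergic neurons. Its level in other excitatory neurons, 520, 560, 554 and 434 CPM, was not separated from that by the rats' spread. The L- and R-type pores had their highest means in granule neurons or in their immature form. Cacna1d, an L-type pore that opens at low voltage, was at 1228, 1391, 1236 and 1010 CPM in granule neurons and at 1088, 1128, 1103 and 924 CPM in immature granule neurons. Cacna1e, the R-type pore, was at 1160, 1291, 1135 and 913 CPM in granule neurons and at 943.9, 946, 973 and 753 CPM in immature ones. Cacna1c, the other L-type pore of the brain, was at 559, 527, 581 and 491 CPM in immature and at 529, 494, 544 and 453 CPM in mature granule neurons. In all 3 genes the ranges of the mature and immature classes overlapped. Of the T-type pores, which open near rest, Cacna1g was highest in other excitatory neurons, with a mean of 182 CPM (182.5), and Cacna1h in granule neurons, with a mean of 106 CPM. Cacna1s of skeletal muscle and Cacna1f of retina had class means of at most 1.66 CPM.

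Among the HCN genes, Hcn2, a subunit of brain and heart, had its highest mean in oligodendrocytes at 40.6, 94.1, 79.8 and 99.4 CPM, from 178 UMIs in all. That range overlapped the 49.9, 65.5, 48.8 and 73.3 CPM of GABAergic neurons. In granule neurons Hcn2 was at 28.2, 28.4, 26.2 and 34.9 CPM, below all 4 values of the oligodendrocytes. Hcn3 was at 17.6, 17.0, 15.7 and 17.8 CPM in GABAergic neurons, apart from every other class, while Hcn4, the subunit of cardiac pacemaking, had class means of at most 3.13 CPM.

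**Figure D2:**
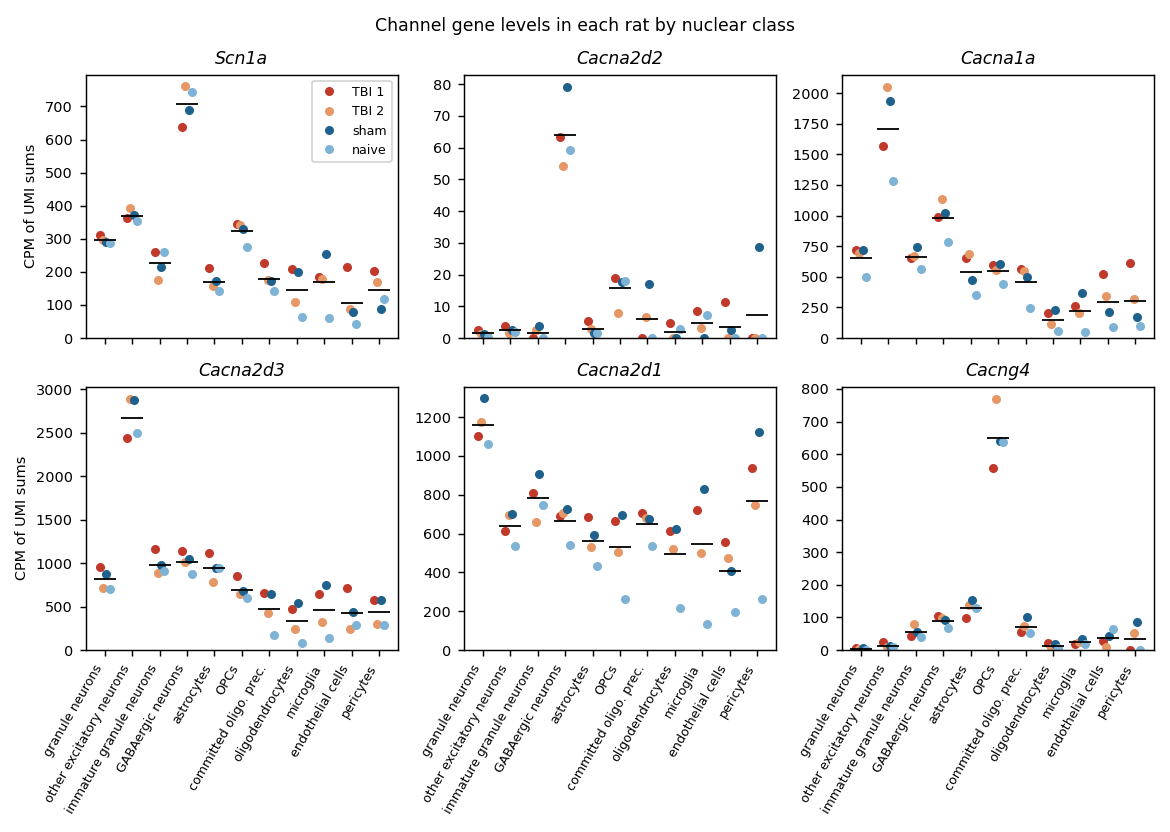
CPM of UMI sums (vertical axis, from 0) in each of the 11 nuclear classes (horizontal axis) for 6 channel genes whose highest class stood apart, with a point for each rat (TBI in red tones, sham and naïve in blue tones) and a bar for the mean. The 4 points of the highest class lie above all points of the next class in each panel, for example 637 to 761 CPM of Scn1a in GABAergic neurons.

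Among the auxiliary subunits, Cacna2d3 was highest in other excitatory neurons at 2435, 2888, 2875 and 2491 CPM, which was 2.63 times the mean of GABAergic neurons and apart from it. Cacna2d1, a target of gabapentin, was highest in granule neurons at 1104, 1173, 1299 and 1059 CPM, and at 811, 659, 907 and 748 CPM in immature granule neurons. Cacna2d2 was nearly absent from granule neurons, at 2.65, 1.41, 1.32 and 0.378 CPM, and stood at 63.3, 54.1, 79.1 and 59.1 CPM in GABAergic neurons. These 3 genes thus each had a different highest class, and in each that class stood apart from the next. The beta subunits were spread over the neurons. Cacnb2 was at 1087, 1258, 1319 and 924 CPM in other excitatory neurons and at 1061, 1029, 1165 and 1027 CPM in granule neurons, which overlapped. Cacnb4, whose loss causes the epilepsy of the lethargic mouse, was highest in GABAergic neurons at 351, 362, 358 and 308 CPM, against 287, 238, 267 and 195 CPM in granule neurons. Cacnb1 and Cacnb3 had class means of at most 72.6 CPM.

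Cacng4, a TARP, was the only 1 of the 15 genes with at least 378.7 CPM in their highest class that peaked outside the neurons. It was at 558, 769, 641 and 637 CPM in oligodendrocyte precursor cells (OPCs), against 97.7, 138, 153 and 130 CPM in astrocytes, the next class. In granule neurons it was at 7.17, 1.98, 6.31 and 0.236 CPM. Cacng8, the TARP best known from the hippocampus, was at 525, 470, 425 and 473 CPM in granule neurons and at 487, 484, 426 and 386 CPM in other excitatory neurons. Those ranges overlapped. Cacng2, the gene mutated in the stargazer mouse, was highest in other excitatory neurons with a mean of 230.2 CPM, and Cacng3 was at most at 247 CPM on average. Cacng7 reached 105, 118, 106 and 124 CPM in OPCs and 103, 110, 91.9 and 127 CPM in GABAergic neurons. Cacng1, Cacng5 and Cacng6 had class means of at most 5.94 CPM. Of the sodium channel beta genes, Scn3b was at 363, 405, 379 and 368 CPM in granule neurons and at 321, 426, 379 and 298 CPM in other excitatory neurons, which overlapped. Scn2b reached 15.7 CPM and Scn4b 4.23 CPM in the mean of their highest class.

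Each gene with at least 20 UMIs in a class was set beside the granule marker share of that class in the same rat. The share rests on markers picked for granule neurons, and genes with fewer UMIs in a class were left out. The same count was not made over all genes, so these counts show no trait of the channel genes as a set. In other excitatory neurons all 35 such genes were above the share in all 4 rats, and in GABAergic neurons 35 of 36 were. In immature granule neurons 6 of 27 were above it in all rats, among them Scn3a and Cacna1g. In astrocytes 11 of 33 were above and 4 below, and in OPCs 12 of 27 were above and 5 below, among the former Cacng4, Cacng7, Scn1a, Scn2a and Cacna1a. In committed oligodendrocyte precursors 7 of 19 were above and 1 below. In oligodendrocytes 4 of 26 were above, among them Cacng4 and Hcn2, and 11 below. In microglia Cacng4 alone of 26 was above and 17 were below. In endothelial cells Cacnb2, Cacng4 and Hcn2 of 24 were above and 6 below, and in pericytes, with 14 such genes, Cacna2d1 was above and Cacna1d below. The remaining genes of each class lay above the share in some rats and below it in others.

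In bulk tissue the question was whether the channel genes differed between TBI and sham rats. No channel gene passed a false discovery rate (FDR) of 0.05 in edgeR's quasi-likelihood test with Benjamini-Hochberg adjustment over all 14166 genes, and neither did any other gene (0%). DESeq2 placed 1 channel gene, Scn7a, under an FDR of 0.05, among 349 of 14166 genes (2.46%). At an unadjusted p under 0.05 edgeR's test listed 4 of 37 channel genes, of which 3 were lower and 1 higher in TBI, beside 9.6% of all genes, of which 1.4% were lower and 8.2% higher. The Log2FC (log2 of TBI over sham) was below 0 for 36 of 37 channel genes, beside 50.6% of all genes, with a median of -0.24 against 0.00 (-0.00293). With limma on the deposited log2 CPM 32 of 37 were below 0, beside 40.6% of all genes, and Cacna1h, Cacng4, Hcn3 and Hcn4 were then above 0 along with Scn7a. Channel genes whose 3 TBI rats all lay below the 3 sham rats were 5 of 37, beside 3.04% of all genes.

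Scn2b, a beta subunit joined to the pore by a disulfide bond, was at 68.6, 96.5 and 83.3 CPM in the sham rats and at 65.5, 64.3 and 53.2 CPM in the TBI rats. All TBI rats lay below all sham rats. Its Log2FC was -0.48 with an SE of 0.158 (edgeR's quasi-likelihood test, unadjusted p = 0.018, Benjamini-Hochberg FDR 0.363). Scn4b, the beta subunit linked to resurgent sodium current, was at 30.6, 37.3 and 35.9 CPM in sham and at 29.2, 28.5 and 18.1 CPM in TBI rats. The groups did not overlap, and TBI rat 3 was the lowest. Its Log2FC was -0.49 with an SE of 0.203 (edgeR's quasi-likelihood test, unadjusted p = 0.0449, Benjamini-Hochberg FDR 0.501). Cacnb4 was at 37.5, 34.8 and 28.6 CPM in sham and at 29.3, 25.8 and 22.5 CPM in TBI rats, where sham rat 3 lay within the TBI range. Its Log2FC was -0.41 with an SE of 0.147 (edgeR's quasi-likelihood test, unadjusted p = 0.0251, Benjamini-Hochberg FDR 0.404).

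**Figure D3:**
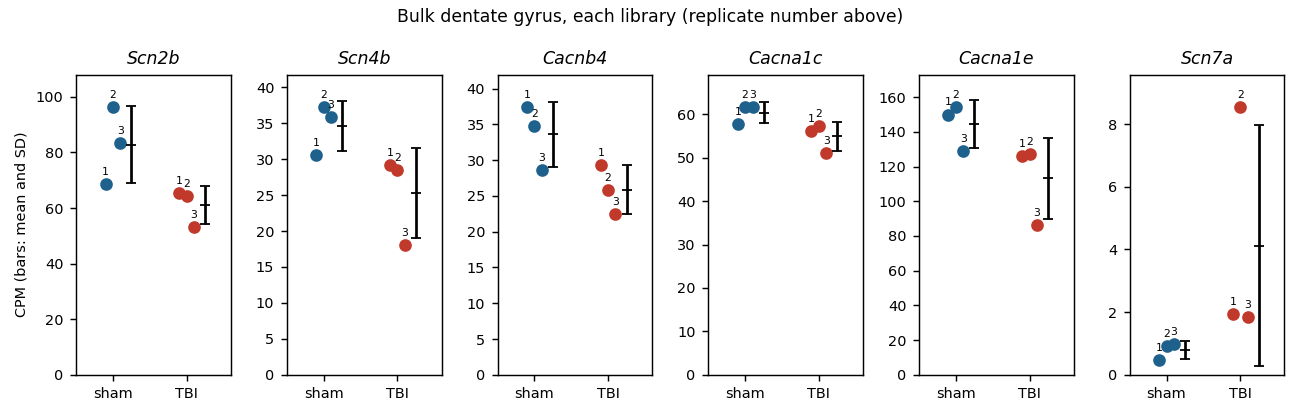
CPM (vertical axes, each from 0) in every bulk library of 6 channel genes, with sham in blue and TBI in red, the replicate number above each point and bars for the mean and SD (n = 3). Scn2b, Scn4b, Cacna1c and Cacna1e had all TBI points below the sham points, Cacnb4 overlapped, and Scn7a was higher in all 3 TBI libraries with replicate 2 at 8.56 CPM.

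Scn7a, which encodes a sodium-sensing relative of the pore-forming subunits, was at 0.457, 0.917 and 0.979 CPM in the sham rats and at 1.94, 8.56 and 1.85 CPM in the TBI rats. All TBI rats lay above all sham rats, and TBI rat 2 was far above the others. Its Log2FC was 2.34 with an SE of 0.698 (edgeR's quasi-likelihood test, unadjusted p = 0.0114, Benjamini-Hochberg FDR 0.314), and with each library left out in turn it lay between 1.19 and 2.70. DESeq2 gave a Log2FC of 2.33 and an FDR of 0.0346. Among all genes 11.7% had all TBI rats above all sham rats. Fibroblast markers, all 5 of which were above 0 with a median Log2FC of 2.46, and microglia markers, 11 of 11 above 0 with a median of 1, were also higher in TBI libraries. So were pericyte markers (8 of 8, median 0.588), endothelial markers (9 of 9, 0.455) and astrocyte markers (10 of 11, 0.318). In nuclei the mean of Scn7a was 0 CPM in microglia, endothelial cells and pericytes, 1.08 CPM in astrocytes and 7.08 CPM in GABAergic neurons. The part of these cell types in the bulk Scn7a value was not tested. In TBI rats 1, 2 and 3 the median fibroblast marker deviated from the sham mean by 1.33, 0.826 and 3.77 on the log2 scale, and the median microglia marker by 0.816, 1.6 and 0.92.

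The remaining pores differed by less. Cacna1e was at 150, 154 and 129 CPM in sham and at 126, 127 and 86.2 CPM in TBI rats, a Log2FC of -0.39, and Cacna1c at 57.7, 61.7 and 61.7 CPM and at 56.2, 57.4 and 51.1 CPM, a Log2FC of -0.18. Both had all TBI rats below all sham rats, as had Cacng7 at 118, 109 and 119 CPM against 109, 107 and 95.4 CPM. None of the 3 reached an unadjusted p under 0.05 in edgeR's test. Scn1a was at 69.7, 105 and 103 CPM in sham and at 74.2, 77.6 and 74.6 CPM in TBI rats. Sham rat 1 was as low as the TBI rats and the groups overlapped. The family medians of the Log2FC were -0.29 for the sodium channel alpha genes (8 in the table), -0.38 for the beta genes (4), -0.18 for calcium channel alpha1 (7), -0.34 for alpha2delta (3), -0.18 for calcium channel beta (4), -0.20 for gamma (7) and -0.10 for HCN (4).

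**Figure D4:**
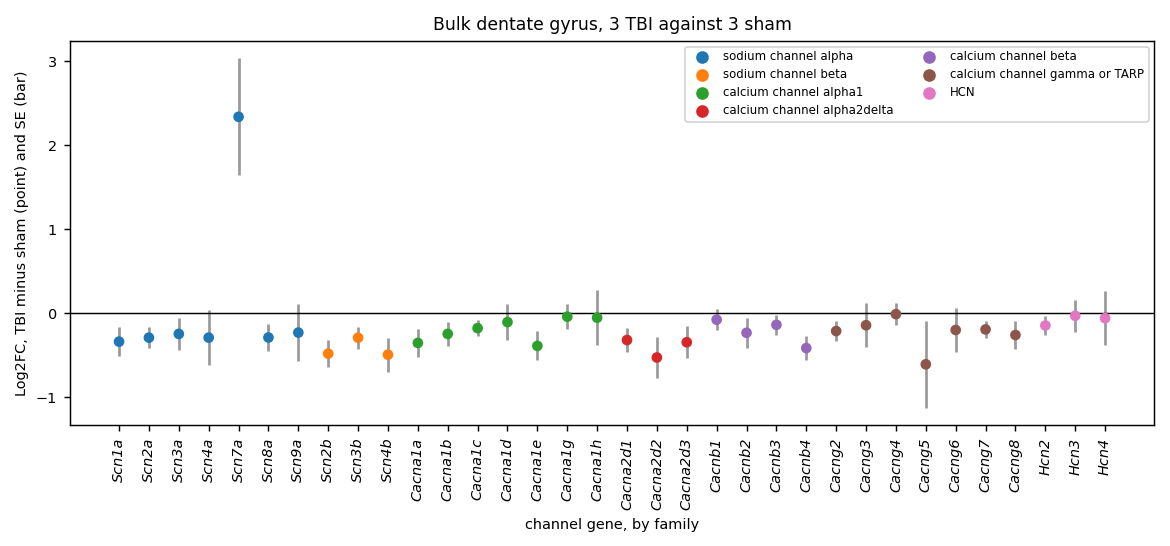
Log2FC of TBI over sham (points) with its SE (bars) for 34 channel genes of the bulk table, grouped and coloured by family. All points but Scn7a at 2.34 lie below 0, and no gene passed an FDR of 0.05.

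The shift was uneven over the libraries. The median channel gene deviated from the sham mean by -0.15, 0.10 and 0.02 on the log2 scale in sham rats 1, 2 and 3 and by -0.10 (-0.105), -0.14 and -0.29 in TBI rats 1, 2 and 3. Sham rat 1 thus lay within the TBI range, and TBI rat 3 was the lowest. Without TBI rat 3 the median Log2FC was -0.15 (-0.146), and 1 channel gene was left under an unadjusted p of 0.05. Within the 2 periods of injury the median difference was -0.12 in spring (TBI rat 1 against sham rats 1 and 2), with 25 of 37 genes below 0, and -0.28 in autumn (TBI rats 2 and 3 against sham rat 3), with 32 of 37 below 0. In bulk tissue fewer cells of a type and less RNA per cell cannot be told apart. The median Log2FC of GABAergic markers was -0.24 (-0.245), with 11 of 14 below 0. Median deviations of these markers ran from -0.17 to 0.17 in sham and from -0.20 to -0.07 in TBI libraries. For astrocyte markers the median was 0.32, with 10 of 11 above 0, and for oligodendrocyte markers -0.69, with 11 of 11 below 0. For granule markers it was -0.01. Without sham rat 2 the oligodendrocyte median was -0.01 (-0.0148) and the granule median -0.31, while that of the channel genes was -0.23 (-0.225). What these markers contribute to the channel values was not tested.

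The nuclei were compared within each class, 2 TBI against 2 control rats, to see whether the channel genes differed by cell type. A total of 277 pairs of a channel gene and a class had enough UMIs for the test, covering 38 of 43 genes. Cacng1, Cacng5, Hcn4, Scn10a and Scn11a, with 17 to 122 UMIs each over all kept nuclei, were tested in no class. In edgeR's quasi-likelihood test with Benjamini-Hochberg adjustment within each class 0 pairs passed an FDR of 0.05 (0% of all genes in every class), and 29 had an unadjusted p under 0.05, 28 higher and 1 lower in TBI. DESeq2 called 6 channel genes, all in astrocytes.

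In the 4 neuron classes few channel genes were listed. In granule neurons 2 of 36 had an unadjusted p under 0.05, beside 1.15% of all genes, and the median Log2FC was 0.11 against -0.01 for all genes. Cacnb3, a beta subunit, was at 31.2 and 29.5 CPM in the TBI rats and at 20.3 and 15.2 CPM in the sham and naïve rats, a Log2FC of 0.72 with an SE of 0.232 (edgeR's quasi-likelihood test, unadjusted p = 0.0246, FDR 0.9998). Cacna1h, a T-type pore long studied for burst firing in epilepsy models, was at 122 and 120 CPM in TBI and at 95.5 and 85.1 CPM in control rats, a Log2FC of 0.37 with an SE of 0.140 (edgeR's quasi-likelihood test, unadjusted p = 0.0451, FDR 0.9998). For both, the TBI rats lay above both controls. In other excitatory neurons Cacnb3 alone of 32 was listed, beside 1.14% of all genes, at 24.95 and 30.3 CPM in TBI and at 16.7 and 11.2 CPM in control rats, a Log2FC of 0.93 with an SE of 0.356 (edgeR's quasi-likelihood test, unadjusted p = 0.0389, FDR 1). The class of other excitatory neurons joined a cluster of 401, 601, 668 and 228 nuclei in the 4 libraries with one of 379, 281, 363 and 316. What this mix contributes to the values was not tested. In immature granule neurons 1 of 25 was listed, beside 4.84% of all genes. It was Cacna1g at 96.2 and 121 CPM in TBI and at 43.2 and 65.4 CPM in control rats, from 109 UMIs in all, with a Log2FC of 0.90. Where nuclei were assigned by a marker gate it was -0.47, but the gate took 26 to 84 nuclei per rat, of which 2.38% to 16.7% were also in the class, so the values describe largely different nuclei. In GABAergic neurons 0 of 34 had an unadjusted p under 0.05 in edgeR's test, beside 1.34% of all genes, and 0 in DESeq2. Scn1a, which peaked there, was at 637 and 761 CPM in TBI and at 690 and 745 CPM in control rats, so that the groups overlapped.

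The 3 genes listed as lower in bulk did not separate the groups in granule neurons. Scn2b was at 10.1 and 12.8 CPM in granule neurons of TBI rats and at 9.002 and 11 CPM in those of controls. Cacnb4 was at 287 and 238 CPM and at 267 and 195 CPM, and Scn4b at 0.904 and 2.98 CPM and at 1.17 and 0.85 CPM. In each the groups overlapped, and the Log2FC was 0.14, 0.13 and 0.91, with SEs of 0.345, 0.177 and 0.807. Scn7a was tested in GABAergic neurons only, at 4.99 and 11.4 CPM in TBI and at 4.99 and 6.88 CPM in control rats.

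**Figure D5:**
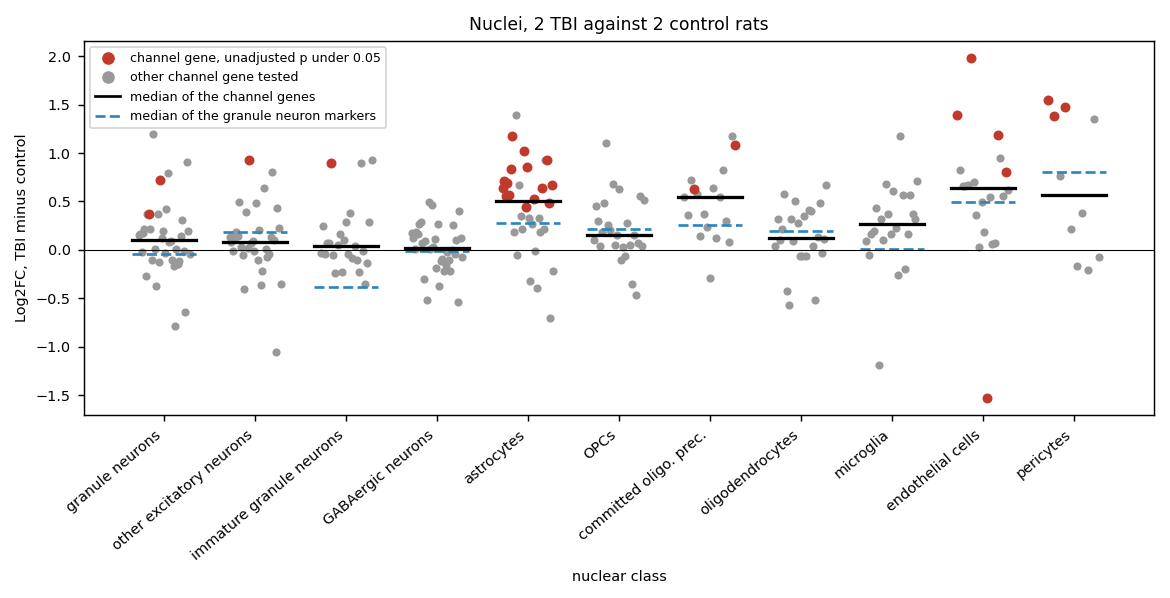
Log2FC of TBI over control (vertical axis) of every channel gene tested in each nuclear class (horizontal axis), with those under an unadjusted p of 0.05 in red, the median of the channel genes as a black line and the median of the granule neuron markers as a dashed blue line. The channel median is 0.51 in astrocytes, 0.54 in committed oligodendrocyte precursors and 0.64 in endothelial cells, and 0.02 to 0.11 in the neuron classes.

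In astrocytes 15 of 32 channel genes had an unadjusted p under 0.05, all of them higher in TBI, beside 12.3% of all genes and 6.71% in that direction. The count was 9 of 32 without TBI rat 1 and 9 of 32 without the naïve rat, and 7 of 27 where nuclei were assigned by a marker gate. In 20 of 32 both TBI rats lay above both controls on TMM-scaled CPM, beside 21.2% of all genes. The median Log2FC was 0.51 against -0.02 for all genes. All 7 calcium channel pores tested there were listed. Cacna1h was at 82.8 and 78.5 CPM in TBI and at 36.6 and 31.9 CPM in control rats, with a Log2FC of 1.17 and an SE of 0.181 (edgeR's quasi-likelihood test, unadjusted p = 0.000296, Benjamini-Hochberg FDR 0.192). Scn8a was at 641 and 657 CPM against 400 (399.9) and 380 (380.3) CPM, a Log2FC of 0.67 with an SE of 0.138 (edgeR, unadjusted p = 0.00171, FDR 0.199). Cacna1d was at 780 (780.2) and 759 CPM against 499 and 413 CPM, a Log2FC of 0.69. For Cacnb3 the values were 27.0 and 26.4 against 12.9 and 12.3 CPM, a Log2FC of 1.02, and for Cacna1b 236 and 182 against 134 and 111 CPM, a Log2FC of 0.71. The TBI rats lay above both controls in each of the 5 genes. Not all channel genes were higher there. Cacna2d3, Cacng4 and Hcn2 had Log2FCs of -0.06, -0.33 and -0.40, none with an unadjusted p under 0.05 in edgeR's test. With DESeq2, 6 of 32 channel genes were under an FDR of 0.05, beside 259 of 12596 genes (2.06%), and with all genes of at least 1 UMI in edgeR's test 7 were, beside 569 of 18809 genes (3.03%).

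In the astrocyte class the granule marker share moved with injury in the same direction, at 66.9% and 57.5% in the TBI rats and at 54% and 45.1% in the sham and naïve rats. Of the 8 granule markers tested there 6 were higher, with a median Log2FC of 0.28 (0.275), and of the 12 astrocyte markers all had a Log2FC below 0, with a median of -0.44. GABAergic markers had a median of -0.26 (-0.265), with 4 of 11 above 0. The sham rat gave 2083 nuclei to the class with 1329 UMIs in the median nucleus, and the other rats 968 to 1034 nuclei with 1966 to 2430 UMIs. The class was also made up differently over the rats. At a resolution of 1 it parted into 3 clusters, of which the one with the lowest granule marker share (42.2%) held 439, 380, 1293 and 481 nuclei of the 4 libraries, and the one with the highest (74.4%) held 278, 217, 410 and 128. What these shares contribute to the channel values was not tested.

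Other non-neuronal classes were thinner. In committed oligodendrocyte precursors, with 54 to 106 nuclei per rat, 2 of 17 genes were listed, beside 6.8% of all genes. Scn8a was at 540 and 403 CPM in TBI and at 214 and 215 CPM in control rats, a Log2FC of 1.08 (1.085) with an SE of 0.319 (edgeR's quasi-likelihood test, unadjusted p = 0.004, FDR 0.607), and Cacna1d at 705 and 765 CPM and at 487 and 438 CPM, a Log2FC of 0.62. In endothelial cells, with 48 to 155 nuclei per rat, 5 of 20 were listed, beside 4.02% of all genes. Cacna1a, Cacna1h, Scn1a and Scn3b had Log2FCs of 1.39, 1.98, 1.19 and 0.81, and Cacng4 one of -1.53. Cacna1h there rested on 16, 15, 5 and 3 UMIs and Cacng4 on 7, 3, 18 and 12. In pericytes, with 24 to 42 nuclei per rat, 3 of 10 were listed, beside 4.56% of all genes, namely Cacna1c, the L-type pore of vascular muscle, at 1.38, Cacna1a at 1.55 and Cacna1e at 1.48. All 3 rested on at most 38 UMIs in a rat. No channel gene had an unadjusted p under 0.05 in edgeR's test in OPCs (25 tested, 1.59% of all genes), oligodendrocytes (24, 0.978%) or microglia (22, 0.798%), nor did DESeq2 call any of them. Cacng4 in OPCs was at 558 and 769 CPM in TBI and at 641 and 637 CPM in control rats. With the sham rat left out, so that the naïve rat was the only control, channel genes past an FDR of 0.05 in edgeR's test numbered 2 in OPCs (1.42% of all genes), 3 in committed oligodendrocyte precursors (2.45%), 7 in microglia (3.09%), 1 in endothelial cells (0.361%) and 2 in pericytes (5.61%). The medians of these classes also rested on single rats. In committed oligodendrocyte precursors the median Log2FC of 0.54 was 0.04 (0.0355) without the naïve rat, 0.20 without TBI rat 1 and 1.04 without the sham rat. In endothelial cells 0.64 became 0.36 without TBI rat 1 and 1.06 without the sham rat, and in pericytes 0.57 became 0.32 without the naïve rat and 1.39 without the sham rat. In microglia and oligodendrocytes the sign itself depended on which rat was left out. The microglia median of 0.272 became -0.409 without the naïve rat, -0.0393 without TBI rat 1 and 1.89 without the sham rat. That of oligodendrocytes, 0.125, became -0.341, -0.148 and 1.14. The granule marker share was lowest in the naïve rat in committed oligodendrocyte precursors at 30.6%, in endothelial cells at 26.4% and in pericytes at 23.1%, and highest in TBI rat 1 at 55.6%, 57% and 68.9%. In committed oligodendrocyte precursors all 6 of their own markers tested and all 7 oligodendrocyte markers tested had a Log2FC below 0, with medians of -0.27 and -0.63. The part of these markers in the channel values was not tested.

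Scn8a was tested in all 11 classes, which come from the same 4 rats. In 8 of them both TBI rats lay above both controls on TMM-scaled CPM. In a single class 11.4% to 22.6% of all genes had both TBI rats on a given side of both controls. In granule neurons it was at 909 and 963 CPM against 774 and 802 CPM, a Log2FC of 0.19, and in GABAergic neurons at 594 and 565 CPM against 559 and 455 CPM, a Log2FC of 0.12. Neither had an unadjusted p under 0.05 in edgeR's test. In bulk Scn8a was at 258, 306.5 and 290.0 CPM in sham and at 257, 273 and 188 CPM in TBI rats, a Log2FC of -0.29 with no unadjusted p under 0.05, and there the groups overlapped.

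Whether the injury effect differed between GABAergic and granule neurons was tested as the interaction of class and injury with the rat as a block. Of 38 channel genes 0 passed an FDR of 0.05 in edgeR's quasi-likelihood test, and 1 had an unadjusted p under 0.05, beside 0.988% of all genes, with the same counts by limma on the per-rat differences. It was Cacna2d2, whose difference of Log2FC was -1.57 with an SE of 0.494 (edgeR, unadjusted p = 0.0193, Benjamini-Hochberg FDR 1). In granule neurons that gene rested on 95 UMIs in all 4 rats. With the whole of the divided GABAergic cluster, an alternative chosen after seeing the data, 0 channel genes had an unadjusted p under 0.05.

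A list of 33 symbols, older names included, was read in the same fits. It held genes that anchor or regulate these channels, and also the sodium leak channel gene Nalcn with genes tied to it. In bulk 29 were in the table, 8 with a Log2FC above 0 and 21 below, beside 50.6% of all genes below, with a median of -0.15. None passed an FDR of 0.05 in edgeR's test, and 3 had an unadjusted p under 0.05, beside 9.6% of all genes. Nalcn, a sodium leak channel, was at 104, 116 and 113 CPM in sham and at 93.0, 94.7 and 89.7 CPM in TBI rats, a Log2FC of -0.30. Gem and Rem1, small GTPases that restrain calcium channels, were at 2.10, 2.02 and 1.48 CPM against 2.99, 3.33 and 3.67 CPM, and at 1.64, 1.58 and 1.46 CPM against 1.90, 3.07 and 3.56 CPM. In all 3 genes the groups did not overlap. Of the 29 partner genes 2 had all TBI rats above all sham rats and 3 had them below, beside 11.7% and 3.04% of all genes. In nuclei no partner gene passed an FDR of 0.05 in any class. The smallest unadjusted p values in astrocytes were those of Rimbp2, which ties calcium channels to release sites, at 442 and 460 (459.9) CPM in TBI against 260 (260.4) and 186 CPM in control rats, of Nfasc, an adhesion molecule of the axon initial segment, at 306 and 342 against 195 and 195 CPM, and of Sptbn4, its spectrin, at 463 and 388 against 255 and 201 CPM. Of 19 partner genes tested in immature granule neurons 1 was lower and 1 higher at an unadjusted p under 0.05 in edgeR's test, beside 4.84% of all genes. Fgf14, which binds sodium channel tails, was at 378 and 306 CPM in TBI and at 491 and 476 CPM in control rats, a Log2FC of -0.57. Calm2 went the other way, at 104 and 200 CPM in TBI and at 90.3 and 80.6 CPM in control rats, a Log2FC of 0.81. Both had a Benjamini-Hochberg FDR of 0.971.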

How the data were processed

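Male rat dentate gyrus was measured in 6 bulk RNA-seq and 4 snRNA-seq libraries, each from 1 rat, and groups were taken from the labels. For bulk, the authors assigned reads by kallisto and deposited unnormalized estimated counts of 31715 transcripts, which sum to 25121893 to 44649404 per library. A second table that the authors deposited holds log2 CPM of 14166 genes, from which unannotated, low and little varying features had been removed. Gene counts were obtained by undoing that log2 scale with each library's total, then rounded. RefSeq's gene table (assembly GRCr8, names only) gave symbols for 13778 of these genes by Entrez number. For nuclei, the authors ran Cell Ranger on Rnor 6.0, exons and introns included, and deposited UMI counts per gene and nucleus. Of the stored matrix entries 1.63% to 27.4% per library hold the value 0. They were read as 0, and their origin is not stated. The kallisto version was not given in the sources used here.

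Kept nuclei had 500 or more UMIs, 300 or more features, log10 genes over log10 UMIs of at least 0.8, mitochondrial UMIs up to 5% and ribosomal UMIs up to 2%. They were clustered in Seurat 5.3.0 with CCA integration (scale 10000, 2000 variable features without the channel genes, 25 principal components, resolution 0.6) into 22 clusters. A cluster of at least 100 nuclei took a class name where at least 3 fixed markers stood 2-fold over a reference, with a pseudocount of 5 CPM. The reference was the median cluster for glia, vascular cells and GABAergic neurons and the GABAergic clusters for the other neurons. Clusters led by mitochondrial genes took no name. The names are rebuilt and can differ from those of the study. No doublet caller was run, and nuclei above the 98th percentile of UMIs were left out as an alternative.

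UMIs were summed per rat and class where every rat had at least 20 nuclei. The quasi-likelihood test of edgeR 4.0.16 was the main test, with TMM scaling, Benjamini-Hochberg adjustment over all genes tested and an FDR threshold of 0.05, and in nuclei with edgeR's filterByExpr. Counts of genes whose TBI and control rats did not overlap in nuclei were made on TMM-scaled CPM. The CPM printed for nuclei are without that scaling. DESeq2 1.42.0, limma 3.58.1, other filters, RLE scaling, a marker gate per nucleus, resolution 1, at least 1000 UMIs per nucleus, surgery period as a covariate, the replicate number as a block and each library left out in turn were tried. Including 3 set-aside glial clusters, or the whole of a divided GABAergic cluster, was chosen after seeing the data. The tests were tested on simulated data. R 4.3.3, Python 3.11.15 and matplotlib 3.10.9 were used.

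The members and lists were chosen with earlier results of these data known. Named with values were channel genes past the threshold, in each comparison the up to 5 with the smallest unadjusted p under 0.05, levels in full for the 15 genes of 378.7 CPM or more in their highest class and otherwise by range, and up to 3 partner genes per comparison. Values given outside that rule, such as those of Cacna1c, Cacna1e, Cacng7 and Scn1a in bulk and the levels of Hcn2 and Cacna2d2, were chosen after they were seen. Values of some of the channel genes are not reported here, though all stay in the counts and medians.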

Additional observations from a re-analysis of the deposited data

Results flagged for a closer look

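For 6 of the channel genes reported here both TBI rats lay above both control rats in one nuclear class and below both in another. This was read on TMM-scaled CPM, the scale of the test, and not on the unscaled CPM printed above. On the unscaled CPM the groups overlapped for Cacna2d2 in GABAergic neurons, where TBI rat 1 lay above the naïve rat. None of these differences between classes was tested. For each gene the pair of classes with the largest difference is given. How many of all genes show opposite directions in some pair of classes was not counted, so the pattern may be common. In a single class 11.4% to 22.6% of all genes had both TBI rats on a given side of both controls. Cacna1g had a Log2FC of 0.90 in immature granule neurons (109 UMIs) and of -1.19 in microglia (40 UMIs), a difference of 2.09. Cacng4 was at 0.27 in GABAergic neurons and at -1.53 in endothelial cells (40 UMIs), a difference of 1.8. Cacna2d2 was at 1.39 in astrocytes (45 UMIs) and at -0.31 in GABAergic neurons, a difference of 1.7. Scn3b was at 1.17 (1.175) in committed oligodendrocyte precursors (72 UMIs) and at -0.14 in immature granule neurons, a difference of 1.31. Scn3a was at 0.92 in astrocytes and at -0.35 in immature granule neurons (76 UMIs), a difference of 1.28. Cacna2d4 was at 0.67 in astrocytes (97 UMIs) and at -0.52 in GABAergic neurons (143 UMIs), a difference of 1.19.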

How the results depend on the processing

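Of 702 values recomputed under an alternative, 608 kept their direction and their side of the threshold or stayed within the spread of the rats. A further 82 moved by more than that spread or, for counts, by over 1.5 times. Among Log2FCs of single genes 11 newly passed the FDR and 1 reversed. The reversed one was Cacna1g in immature granule neurons, at -0.47 (-0.473) with a marker gate per nucleus, whose nuclei were largely others than those of the class. Class medians in nuclei were judged by the spread alone, so a change of their sign was not counted as reversed. The median of other excitatory neurons went from 0.0832 to -0.0848 without TBI rat 2. That of immature granule neurons went from 0.04 to -0.125 by the marker gate. Those of microglia and oligodendrocytes also changed sign. In bulk the count of channel genes past an FDR of 0.05 rose from 0 to 1 with DESeq2. The count at an unadjusted p under 0.05 was 4, against 11 with DESeq2, 8 with RLE size factors and 1 to 11 with each library left out, and the median Log2FC lay between -0.33 (-0.328) and -0.15 (-0.146). The low end of the count came without sham replicate 2 or TBI replicate 3 and the high end without sham replicate 1. With surgery period as a covariate the median was -0.23. With the replicate number as a block 8 channel genes had an unadjusted p under 0.05 and 0 passed the FDR, beside 61 of all genes. Deviations of same-numbered libraries correlated at 0.352, 0.173 and -0.03 and 4 of 6 libraries were closest to their own number. Numbers 1 and 3 each fall in 1 period of injury and number 2 in both. No label says that a number marks a shared animal or day, and the third correlation was below 0.1, so the numbers were not taken as pairs. No paired analysis was possible in nuclei because the groups share only replicate number 1.

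In astrocytes the count past an FDR of 0.05 rose from 0 to 6 with DESeq2 and to 7 with all genes of at least 1 UMI, and the 15 under an unadjusted p of 0.05 fell to 7 by the marker gate and were 9 to 17 with each rat left out. With each rat left out the counts were 0 to 2 in OPCs, 0 to 3 in committed oligodendrocyte precursors, 0 to 7 in microglia, 0 to 1 in endothelial cells and 0 to 2 in pericytes. All the highest values came without the sham rat, where the naïve rat is the only control and is assumed to vary like the TBI rats. By the marker gate the levels of Cacna1c in immature granule neurons, Cacna2d3 in other excitatory neurons and Cacng4 in OPCs moved to 379.5, 2057 and 453 CPM. The causes were not tested. The minimum of 1000 UMIs was not run for microglia and pericytes, where a rat was left with under 20 nuclei. With 3 rats against 3 an exact permutation test cannot go below 0.1, and with 2 against 2 not below 0.333. Thin classes limit the depth, as channel genes in pericytes and endothelial cells rest on few UMIs per rat. P-values set the difference between groups against the spread between these rats, which is partly pooled over genes. In nuclei the control spread is that of 1 sham and 1 naïve rat, which differ by surgery as well as by animal.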
